A study of Mus musculus with 32 samples.

Results

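The 35 genes described here are p53 (Trp53), its inhibitors Mdm2 and Mdm4, and 32 genes known to be turned on by p53, chosen by name among the 37310 genes of the count table. All 35 had a row in the table. The study profiled brain tumors of the hindbrain from Tet-OFF transgenic mice in the FVBN strain, in which the promoter of the glutamate transporter Glt1 drives the tTA transactivator. In the GMYC model (Glt1-tTA/TRE-MYC) tTA turns on a MYC transgene, and in the GTML model it turns on a MYCN transgene, so both models share the driver promoter and differ in the oncogene. Whole-tumor biopsies of 6 GMYC and 8 GTML tumors were compared. The labels name no further allele or treatment for these tumors and give no age, and the cell lines of the series, with Arf deletion or drug, are not analysed here. The question put to these genes is how the p53 pathway stood in a MYC-driven and in a MYCN-driven tumor.

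p53 is a transcription factor that is kept low in resting cells because MDM2 marks it for degradation and MDM4 blocks its activity. DNA damage, or an oncogene such as MYC acting through ARF (a product of the Cdkn2a locus that binds MDM2), frees p53 to switch on genes that stop the cell cycle, start apoptosis, limit oxidative stress and repair DNA. p53 itself is regulated mostly at the protein level, which RNA does not measure. Mutant p53 can fail to switch on these genes. The study found Trp53 mutations in a part of the tumors that it sequenced from each model, at a comparable frequency. The labels do not give the Trp53 mutation status of any tumor used here.

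Total counts ran from 6218378 to 7279811 in GMYC tumors and from 4602294 to 6317404 in GTML tumors, ranges that overlap at their ends. In most GTML tumors 1 count was therefore worth more CPM (counts scaled to library size, with TMM factors from edgeR) than in GMYC tumors. In each of 43 pairs of tumors of a model, counts differed by more than sampling noise (chi-square divided by its degrees of freedom 5.67 or more). The labels do not say that each tumor came from a separate mouse, so p-values measure the spread between these samples. The study's methods state that part of the GTML tumors had been sequenced earlier, and no label marks which, so model and sequencing occasion cannot be told apart. The study left a GTML tumor with an SHH-like profile out of its own comparison of the models, and the labels do not mark that tumor. All 8 GTML tumors are used here. GTML tumor 2 stood apart, with a chi-square divided by its degrees of freedom of 30.4 to 54.8 against the other GTML tumors and of 5.67 to 25.8 among those. Without it 8 rather than 6 of the 35 genes were called higher in GMYC (Cdkn1a and Sesn1 were added). The count over all genes tested rose as well, from 2041 of 21024 to 3166 of 20936. Small nucleolar RNAs (snoRNAs) took 0.366% of counts or more in 6 tumors (GMYC tumors 1 to 4, GTML tumors 1 and 2) and 0.272% or less in the other 8, a split that crosses the models. The split follows the order of the samples in the series, in which those 6 tumors come before the other 8. The labels do not say what it reflects. Counts on Y-linked genes were above 20 in all 6 GMYC tumors and in 4 of 8 GTML tumors, and below it in GTML tumors 2, 3, 5 and 8. The tumor markers Otx2, Npr3, Syp and Tubb3 were expressed in every tumor (summed level 628 to 756 CPM in GMYC and 527 to 768 CPM in GTML), and 1 of the 4 was called higher in GMYC. Markers of astrocytes, oligodendrocytes, microglia, endothelium, pericytes, T cells, cerebellar neurons and red blood cells were each above 0 in both models with overlapping sums. Of the red blood cell list, 3 of 4 genes were called higher in GMYC (summed level 47.0 to 147 CPM against 39.6 to 133 CPM). Of the granule neuron list 1 gene was called in each direction, the oligodendrocyte and endothelium lists had 1 gene each higher in GTML, and the remaining lists had 0 called genes in edgeR. The part of these cells in the results below was not tested.

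All 35 genes passed the filter (above 1 CPM in at least 3 tumors) and were fitted with 21024 genes in edgeR's quasi-likelihood test, with adjusted p-values over all 21024. A difference is given as a log2 fold change of GTML over GMYC with its standard error (SE), so that a negative value is a higher level in GMYC. At an adjusted p under 0.05, 6 of the 35 genes (17.1%) were higher in GMYC, where the share over all genes tested was 9.71%. They were Ccng1, Plk2 and Rprm, which act on the cell cycle, Bax and Apaf1, which carry out apoptosis, and the p53 inhibitor Mdm2. Only Sfn was higher in GTML (2.86% of the 35 genes, against 11.5% of all genes tested).

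Since the genes were chosen with results known, the list itself was not tested. Of the 35 differences 24 lay below 0 and 11 above, with a median of -0.14 against 0.04 over all genes tested. At an unadjusted p under 0.05, 8 genes lay on the GMYC side (22.9%, against 17.4% of all genes tested) and 2 on the GTML side (5.71%, against 20.4%). The share in either direction was 28.6%, below the 37.8% of all genes. By the study's stricter rule (adjusted p under 0.01 and a difference above 1 on the log2 scale) 1 gene, Sfn, was called higher in GTML, against 2.11% of all genes, and 0 genes were called higher in GMYC with edgeR, against 1.1% of all genes. DESeq2 passed 3 by that rule (Sfn, Plk2 and Rprm) and limma-voom 0, but the share of all genes passing it was not counted with these tools. At an adjusted p under 0.05 DESeq2 called more of all genes than edgeR (3305 against 2418 higher in GTML, 2547 against 2041 higher in GMYC). For none of the 35 genes did the tumors of the models separate completely. Over all genes 2.14% had every GTML tumor above every GMYC tumor and 2.48% had the opposite. For 35 genes, 0 is near those shares. In bulk tumors, fewer cells that express a gene and less RNA per cell cannot be told apart.

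**Figure D1:**
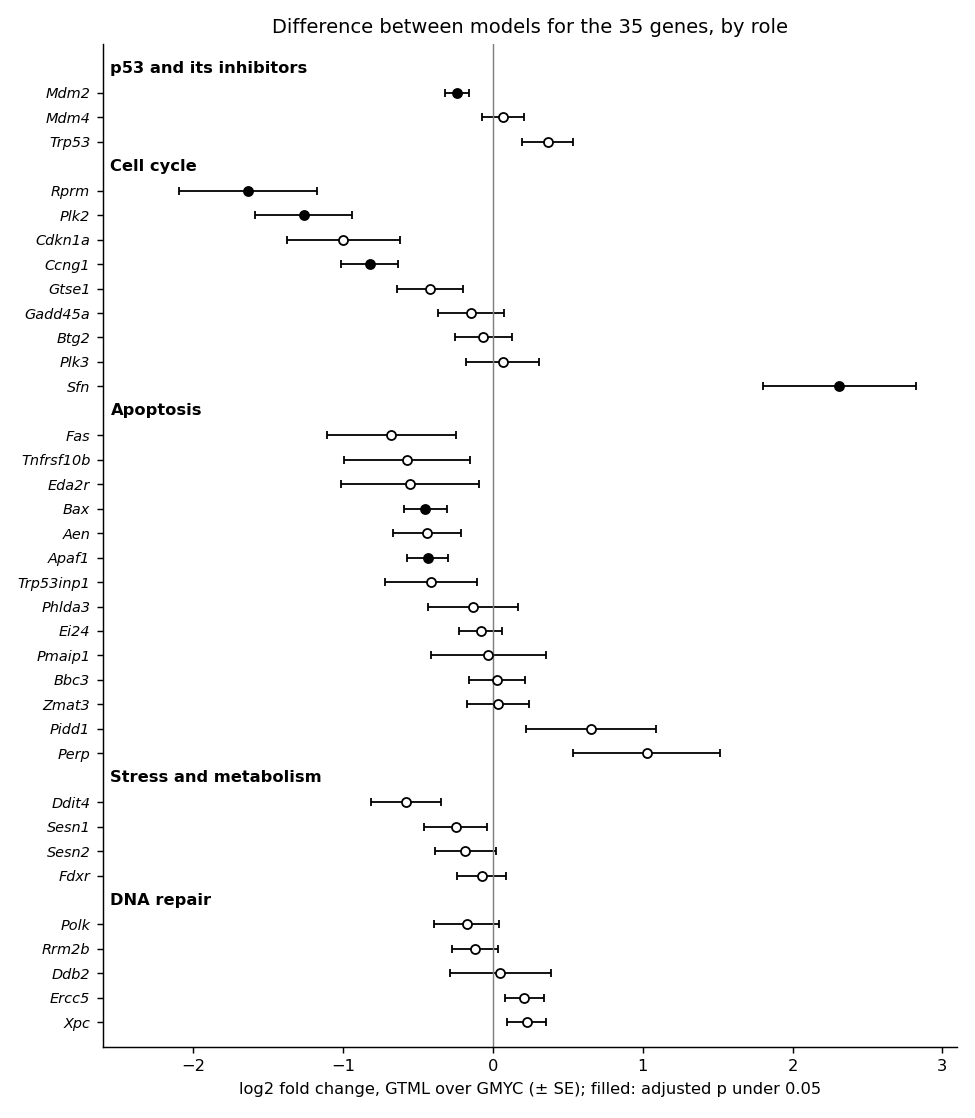
Difference between the models for each of the 35 genes, grouped by role. The x axis is the log2 fold change of GTML over GMYC from edgeR, bars are 1 SE, and filled points have an adjusted p under 0.05. Filled points lie left of 0 for 6 genes and right of 0 for Sfn, and the 5 DNA repair genes all lie within 0.23 of 0.

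Trp53, which encodes p53 itself, was at 57.0, 87.5 and 106 CPM (lowest, median and highest) in GMYC tumors and at 80.1, 106 and 154 CPM in GTML tumors. GTML tumors 1, 3, 5, 6 and 7 stood above every GMYC tumor and GMYC tumors 2 and 6 below every GTML tumor. The means were 86.1 ± 18.2 CPM (SD, n = 6) and 111 ± 26.6 CPM (SD, n = 8), a difference of 0.37 (SE 0.17) that did not pass (edgeR adjusted p = 0.129).

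Mdm2, the ubiquitin ligase that degrades p53 and is itself a p53 target, was at 107, 117 and 125 CPM in GMYC tumors and at 89.6, 96.7 and 114 CPM in GTML tumors. It was the steadiest of the 35 genes within each model (SD of log2 CPM 0.07 in GMYC and 0.11 in GTML). GTML tumors 3 and 7 overlapped the GMYC range and the other 6 lay below it. Mdm2 was 1.18-fold higher in GMYC (-0.24, SE 0.08, edgeR adjusted p = 0.0493), just inside the threshold, and it passed in only 2 of the 14 fits that each left out 1 tumor (without GTML tumor 2 or 3), with adjusted p-values up to 0.0866 in the others. Mdm2 also missed it with the edgeR default filter (adjusted p = 0.0845), with no filter (adjusted p = 0.0823), with the snoRNA split in the model (adjusted p = 0.0539) and with a covariate for Y-linked genes (adjusted p = 0.111).

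Mdm4, the relative of MDM2 that blocks p53 without degrading it, was at 127, 143 and 204 CPM in GMYC tumors and at 114, 167 and 197 CPM in GTML tumors. GTML tumors 2 and 4 were below all GMYC tumors and GMYC tumor 2 was above all GTML tumors. The difference was 0.07 (SE 0.14, edgeR adjusted p = 0.738), and it took a negative sign in 3 alternative fits.

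**Figure D2:**
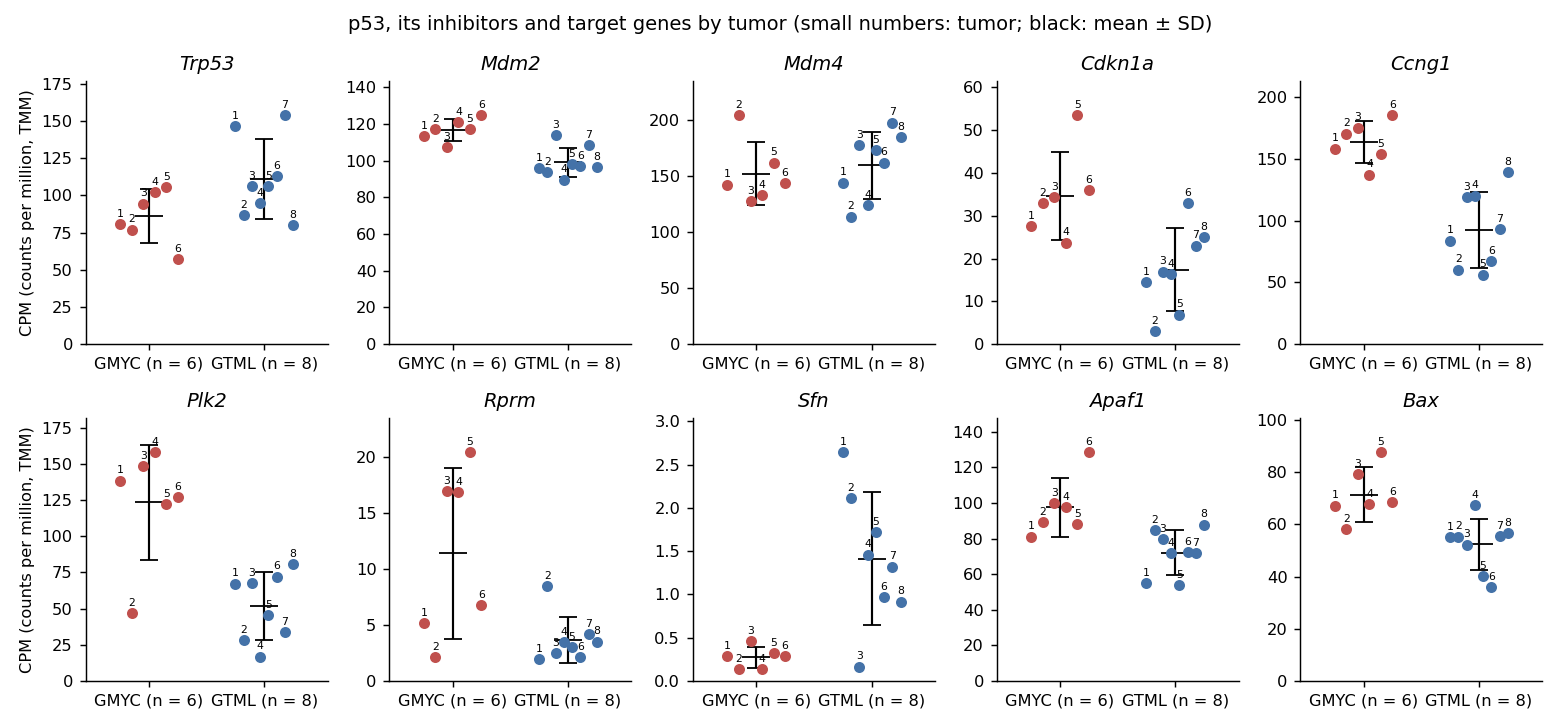
CPM in each tumor of p53, its inhibitors, Cdkn1a and the 6 other genes past the threshold. Each point is a tumor, small numbers give the tumor, and black marks give the mean and SD (n = 6 GMYC and n = 8 GTML). All y axes start at 0. Ccng1 and Plk2 separate the models except for 1 tumor, whereas Sfn stays under 3 CPM in every tumor.

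Among the 9 cell cycle genes, 3 were higher in GMYC (33.3%, against 9.71% of all genes) and 1 higher in GTML (11.1%, against 11.5%), the latter being Sfn, which was tested only through its GTML values. Ccng1 encodes cyclin G1, which takes part in a feedback loop with MDM2. It was at 137, 165 and 185 CPM in GMYC tumors and at 56.5, 88.7 and 139 CPM in GTML tumors. Only GTML tumor 8 reached into the GMYC range, where it lay just above GMYC tumor 4. Ccng1 was 1.77-fold higher in GMYC (-0.82, SE 0.19, edgeR adjusted p = 0.0102), and it passed in all 14 fits that left out 1 tumor.

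Plk2, a polo-like kinase that also responds to growth factor signals, was at 47.0, 133 and 158 CPM in GMYC tumors and at 16.8, 56.4 and 80.8 CPM in GTML tumors. GMYC tumor 2, at 47.0 CPM, was the one GMYC tumor inside the GTML range. Plk2 was 2.40-fold higher in GMYC (-1.26, SE 0.32, edgeR adjusted p = 0.0151) and passed in all 14 fits that left out 1 tumor.

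Rprm, which encodes the G2 arrest protein Reprimo, was at 2.11, 11.8 and 20.4 CPM in GMYC tumors and at 1.94, 3.24 and 8.46 CPM in GTML tumors. GMYC tumors 3, 4 and 5 stood at 16.8 CPM or more, above every GTML tumor, and GMYC tumors 1, 2 and 6 lay among the GTML tumors. Rprm was 3.1-fold higher in GMYC (-1.63, SE 0.46, edgeR adjusted p = 0.0227), but not past the threshold with limma-voom (adjusted p = 0.0649), with a covariate for Y-linked genes (adjusted p = 0.0517) or without GMYC tumor 3 or 5 (adjusted p up to 0.0609).

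Sfn, which encodes 14-3-3 sigma, an epithelial protein that holds cyclin B in the cytoplasm, was barely expressed. It had 1 to 3 counts in each GMYC tumor (0.135, 0.285 and 0.459 CPM) and 1 to 15 counts in GTML tumors (0.166, 1.39 and 2.65 CPM), with 7 GTML tumors above every GMYC tumor and GTML tumor 3, at 1 count, among them. No GMYC tumor was above 1 CPM, so Sfn was tested only because 5 GTML tumors were, and a gene kept in this way had to differ. The fitted difference was 2.31 (SE 0.51, edgeR adjusted p = 0.00868). The 63 counts in GTML and 11 counts in GMYC gave a ratio of 5.26 (exact 95% interval 2.75 to 11.1, which covers counting error only), and with the edgeR default filter the gene was not tested.

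Cdkn1a encodes p21, the inhibitor of cyclin-dependent kinases through which p53 arrests the cell cycle. It was at 23.7, 33.6 and 53.4 CPM in GMYC tumors and at 3.09, 16.7 and 33.0 CPM in GTML tumors. GTML tumor 2 was lowest at 3.09 CPM (19 counts) and GTML tumor 5 next at 6.90 CPM (32 counts), while GTML tumors 6 and 8 reached into the GMYC range. The means were 34.7 ± 10.3 CPM (SD, n = 6) and 17.4 ± 9.69 CPM (SD, n = 8).

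The difference in Cdkn1a was 1.99-fold (-0.996, SE 0.38) and missed the threshold in edgeR (adjusted p = 0.0691). It passed with DESeq2 (adjusted p = 0.0470), with limma-voom (adjusted p = 0.0319), when the snoRNA split was added to the model (adjusted p = 0.0265), and in edgeR without GTML tumor 2 (adjusted p = 0.0406) or GTML tumor 6 (adjusted p = 0.0421). With a covariate for Y-linked genes the difference was -0.67 (adjusted p = 0.315).

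The remaining 4 cell cycle genes did not pass. Gtse1, which moves p53 out of the nucleus in G2, differed by -0.42 (SE 0.22, edgeR adjusted p = 0.174), with GMYC tumor 6 at 124 CPM and all other tumors at 70.0 CPM or less. Gadd45a, a sensor of growth arrest and DNA damage, differed by -0.14 (SE 0.22, adjusted p = 0.657). Btg2, an antiproliferative early response gene, differed by -0.06 (SE 0.19, adjusted p = 0.831), and Plk3, a stress-responsive polo-like kinase, by 0.07 (adjusted p = 0.861).

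Promoter sequence of the genes was looked at for the letters of the p53 response element, which consists of a pair of half-sites that each hold C, any 2 bases and G. RefSeq promoters (250 bases before to 50 bases after a start, GRCm38.p6, whereas the counts were made on mm9) were matched by symbol for 27 of the 35 genes. The core CNNG, any 6 bases, CNNG, read on both strands, occurred in 25 of 27 genes (92.6%) and in 72.4% of 27025 genes. The form with CATG in both places, which is contained in the core, was found only for Cdkn1a (3.7%, against 0.833% of all genes). A search for the whole p53 element with at most 2 mismatches, added after the counts had been seen, matched Ccng1, Cdkn1a and Gtse1 (11.1%, against 0.392% of all genes). These 3 stretches are shown because they are the full-length matches among the cell cycle genes described above, with the element in capitals and 1 mismatch in each.
Ccng1 (chr11:40755447-40755496, minus strand, element at -195 to -176 from the start): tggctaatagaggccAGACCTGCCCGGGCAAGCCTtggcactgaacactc
Cdkn1a (chr17:29090913-29090962, plus strand, element at -51 to -32 from the upstream of its RefSeq starts): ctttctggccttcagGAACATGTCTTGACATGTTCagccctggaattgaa
Gtse1 (chr15:85859930-85859964, plus strand, element at -1 to 19 from the start): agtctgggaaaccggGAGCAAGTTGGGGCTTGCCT
A match says only that the letters are there. Ccng1 passed the test between the models, whereas Cdkn1a and Gtse1 did not.

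Among the 14 apoptosis genes, 2 were higher in GMYC (14.3%, against 9.71% of all genes) and 0 higher in GTML (against 11.5%) in edgeR, and DESeq2 and limma-voom also called 0 higher in GTML. At an unadjusted p under 0.05 were 2 of the 14 (14.3%), against 37.8% of all genes. Apaf1, the scaffold of the apoptosome that activates caspase-9, was at 81.1, 93.5 and 129 CPM in GMYC tumors and at 53.9, 72.1 and 87.9 CPM in GTML tumors. GTML tumors 2 and 8 overlapped the GMYC range, which GMYC tumor 6 topped. Apaf1 was 1.35-fold higher in GMYC (-0.43, SE 0.14, edgeR adjusted p = 0.0348) and lost the call without GMYC tumor 3, 4 or 6 or GTML tumor 5 or 7, with an adjusted p up to 0.0797. With the Y-linked covariate its adjusted p was 0.0586.

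Bax, which opens the outer mitochondrial membrane, was at 58.3, 68.0 and 87.7 CPM in GMYC tumors and at 36.1, 55.2 and 67.3 CPM in GTML tumors. Only GTML tumor 4 lay inside the GMYC range, and GTML tumors 5 and 6 were lowest. Bax was 1.37-fold higher in GMYC (-0.45, SE 0.14, edgeR adjusted p = 0.0372) and held the call in 7 of the 14 fits that left out 1 tumor, losing it without GMYC tumor 1, 3, 5 or 6 or GTML tumor 3, 5 or 6 (adjusted p up to 0.0925). The call was also lost with a covariate for Y-linked genes (adjusted p = 0.135), with the snoRNA split in the model (adjusted p = 0.0631) and with no filter (adjusted p = 0.0507). Its exons overlap those of Gm45808 on the same strand over 192 bases, so part of its reads could be shared.

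None of the other 12 apoptosis genes passed. Perp, a membrane protein of desmosomes and apoptosis, was at 3.34 ± 2.58 CPM in GMYC (SD, n = 6) and 6.82 ± 4.42 CPM in GTML (SD, n = 8), a difference of 1.03 (SE 0.49, edgeR adjusted p = 0.139) that passed only without GMYC tumor 6 (adjusted p = 0.0387). Aen, an apoptotic nuclease, differed by -0.44 (SE 0.23, adjusted p = 0.167) and passed without GMYC tumor 6 (adjusted p = 0.0299), in which it was lowest at 49.9 CPM. Fas, a death receptor, had at most 19 counts in any tumor and differed by -0.68 (SE 0.43, adjusted p = 0.259).

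The remaining 9, which were Pidd1, Tnfrsf10b, Trp53inp1, Eda2r, Ei24, Phlda3, Zmat3, Bbc3 and Pmaip1, differed by between -0.57 (Tnfrsf10b) and 0.66 (Pidd1). The BH3-only genes Bbc3 (PUMA) and Pmaip1 (NOXA), which act upstream of BAX, differed by 0.03 (SE 0.18) and -0.03 (SE 0.38). Bbc3 stood at 29.3 ± 4.69 CPM (SD, n = 6) and 29.9 ± 7.5 CPM (SD, n = 8), while Pmaip1 had no more than 30 counts in any tumor.

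Among the 4 genes of stress and metabolism, 0 passed in edgeR, where 9.71% of all genes were called higher in GMYC and 11.5% higher in GTML. With so few genes, 0 called is near those shares. At an unadjusted p under 0.05 was 1 of the 4 (25%, against 37.8% of all genes). This was Ddit4 (REDD1), an inhibitor of mTORC1, which differed by -0.58 (SE 0.23, adjusted p = 0.0851). It stood at 162 CPM in GMYC tumor 6 and at 80.5 CPM or less in the other GMYC tumors, and passed without GMYC tumor 4 (adjusted p = 0.0376) and among tumors of lower snoRNA share alone (-1.16, adjusted p = 0.0324). The sestrins Sesn1 and Sesn2, which also restrain mTORC1, differed by -0.25 (SE 0.21, adjusted p = 0.400) and -0.18 (SE 0.20, adjusted p = 0.530). Sesn1 was highest of all tumors in GTML tumor 2 (146 CPM), was below every GMYC tumor in GTML tumors 1, 4, 6, 7 and 8, and passed without GTML tumor 2 (-0.44, adjusted p = 0.0368) and with a covariate for Y-linked genes (-0.68, adjusted p = 0.0401). Fdxr, ferredoxin reductase, differed by -0.07 (adjusted p = 0.769).

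The 5 DNA repair genes did not pass, where 9.71% of all genes were called higher in GMYC and 11.5% higher in GTML. With so few genes, 0 called is near those shares. None had an unadjusted p under 0.05 (against 37.8% of all genes). Xpc, the damage sensor of nucleotide excision repair, was at 50.3, 76.0 and 80.3 CPM in GMYC tumors and at 64.4, 87.3 and 103 CPM in GTML tumors, with 5 GTML tumors above every GMYC tumor (0.23, SE 0.13, edgeR adjusted p = 0.206). Ercc5, an endonuclease of the same pathway, differed by 0.21 (SE 0.13, adjusted p = 0.248) and Polk, a translesion polymerase, by -0.17 (SE 0.21, adjusted p = 0.573). Rrm2b, a subunit of ribonucleotide reductase, and Ddb2, a binder of ultraviolet damage, differed by -0.12 and 0.05.

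Levels between genes were compared per kilobase of exon (CPM per kb). Btg2 was highest in both models, at 79.1 ± 20.4 CPM per kb in GMYC (SD, n = 6) and 75.7 ± 19.2 CPM per kb in GTML (SD, n = 8). In GMYC it was followed by Ccng1 (46.6 ± 4.88 CPM per kb), Ddit4 (46.2 ± 23.6) and Bax (45.3 ± 6.62), which did not differ beyond their SD. In GTML it was followed by Bax (33.2 ± 6.27), Ddit4 (30.9 ± 6.03), Trp53 (27.4 ± 6.58) and Ccng1 (26.3 ± 8.83), which also lay within an SD of their neighbours. Sfn (0.168 ± 0.0753 CPM per kb) was lowest in GMYC, and Fas (0.554 ± 0.413 CPM per kb) in GTML. Of the 34 pairs of neighbours in this order, the gap exceeded the larger SD for 5 in GMYC and for 2 in GTML.

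Within a model, spread was taken as the SD of log2 CPM over its tumors. The median SD of log2 CPM was 0.31 in GMYC and 0.48 in GTML for the 35 genes, and 0.37 and 0.47 for the 19828 genes at or above the level of the lowest of them. The spread was uneven between the models for single genes, which were chosen after their values had been seen. Eda2r, an X-linked death receptor of the tumor necrosis factor family, had an SD of 0.37 in GMYC and 1.48 in GTML, where it ran from 5.17 CPM in GTML tumor 5 (24 counts) and 62 counts in GTML tumor 6 to 116 CPM in GTML tumor 8.

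Cdkn1a (0.39 against 1.07), Pidd1 (0.26 against 1.02) and Ddb2 (0.26 against 0.89) were likewise more variable in GTML. Pidd1, which assembles a platform for caspase-2, stood at 267 CPM (1512 counts) in GTML tumor 1 and at 73.2 CPM or less in all other GTML tumors, and without that tumor its difference between the models fell from 0.66 to -0.00. Ddb2 was lowest in GTML tumor 2 (3.25 CPM, 20 counts) and highest in GTML tumor 3 (27.5 CPM). Rprm (1.22 against 0.62) and Trp53inp1, a partner of p53 in apoptosis and autophagy (0.82 against 0.42), were more variable in GMYC.

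**Figure D3:**
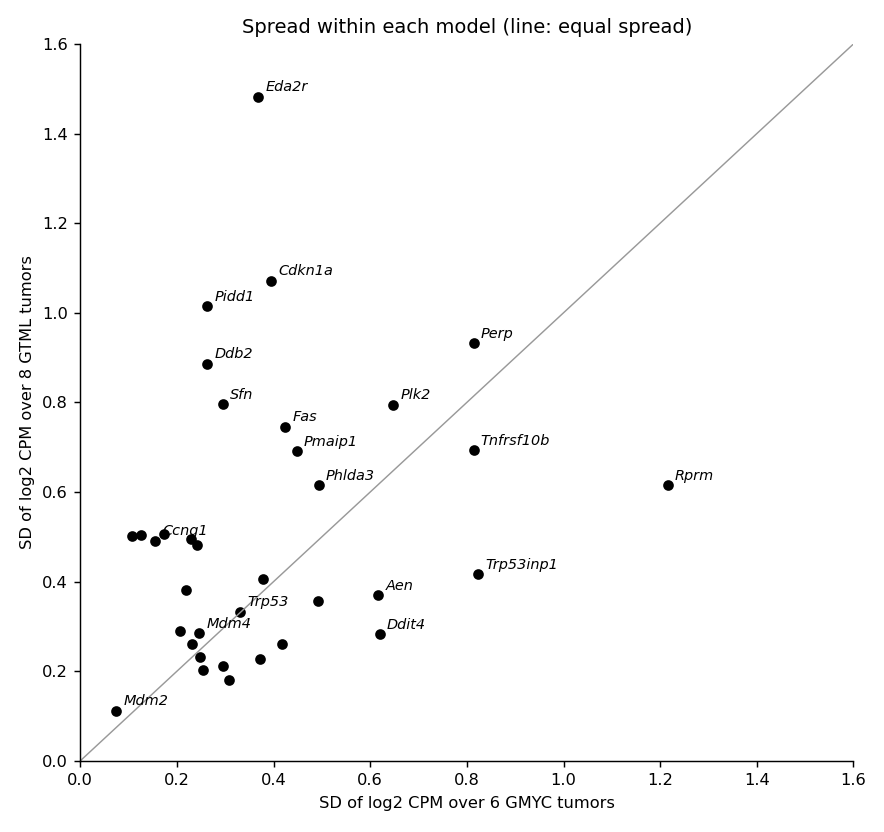
Spread of each of the 35 genes within the models. The axes give the SD of log2 CPM over the 6 GMYC tumors (x) and over the 8 GTML tumors (y), each point is a gene, and the line marks equal spread. Eda2r, Cdkn1a, Pidd1 and Ddb2 lie far above the line and Rprm and Trp53inp1 below it, while Mdm2 is nearest to 0.

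No tumor had low or high values for all of the genes. GTML tumor 2 was the lowest GTML tumor for 10 of the 35 genes, among them Cdkn1a and Ddb2, and the highest for 4, which were Rprm, Sesn1, Tnfrsf10b and Pmaip1. For 9 genes GTML tumor 8 stood highest in its model. GMYC tumor 6 was the highest GMYC tumor for 12 genes, among them Ccng1, Mdm2, Apaf1, Ddit4 and Trp53inp1, and the lowest for 6, among them Trp53, Aen and Xpc. GMYC tumor 4 was lowest for 10 genes.

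**Figure D4:**
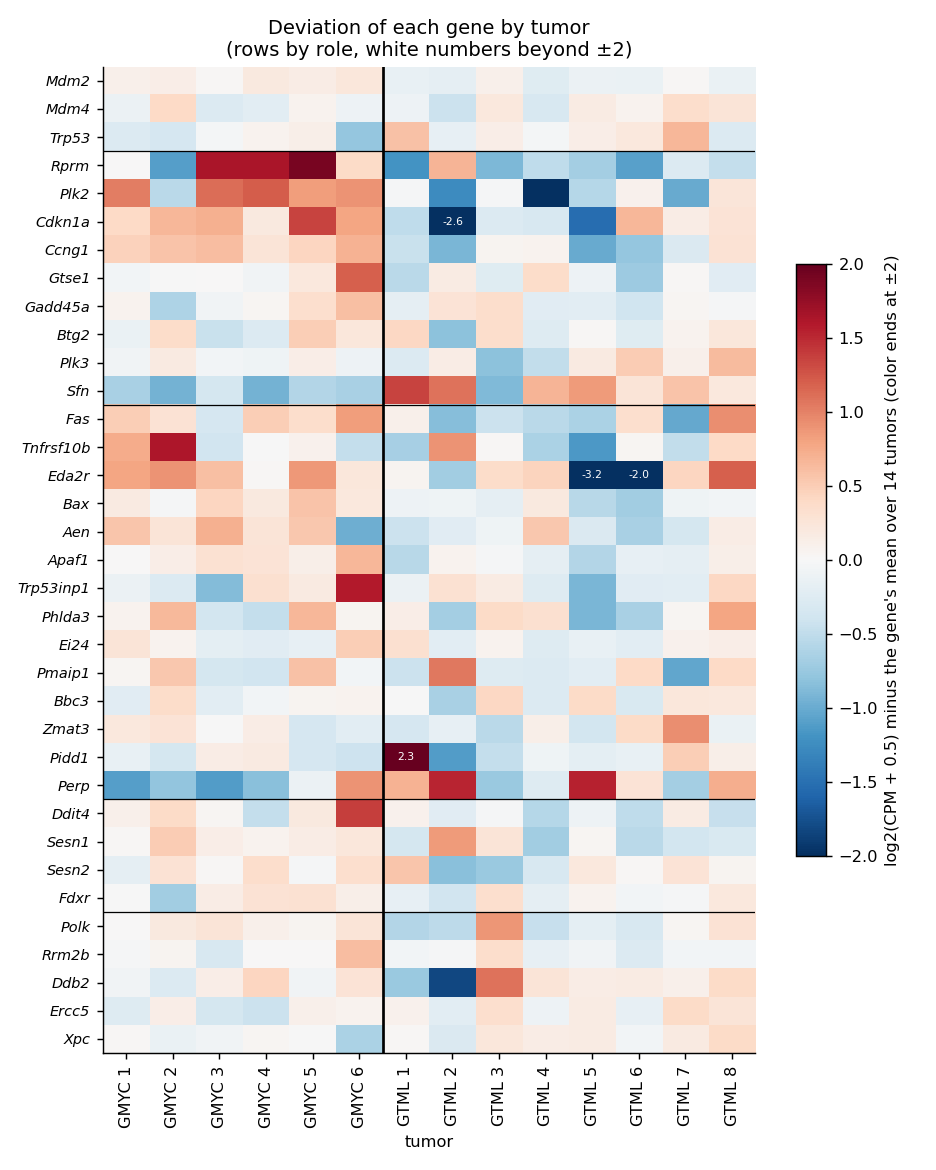
Deviation of each gene in each tumor from the mean of that gene over the 14 tumors, in log2(CPM + 0.5). Rows are the 35 genes by role, columns the tumors with GMYC left of the line, red is above and blue below the mean, and values beyond 2 are printed in white. Among the cells that stand out are Cdkn1a in GTML tumor 2, Eda2r in GTML tumors 5 and 6 and Pidd1 in GTML tumor 1.

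Cdkn2a, the locus of ARF and of the kinase inhibitor INK4A, is upstream of these genes. The table has a single count for the locus, so the products were not told apart. It had 6, 9, 57, 17, 15 and 1 counts in GMYC tumors 1 to 6 and 199, 403, 201, 268, 146, 133, 157 and 234 counts in GTML tumors 1 to 8. Every GTML tumor lay above every GMYC tumor, and the difference was 3.87 (SE 0.57, edgeR adjusted p = 0.00172). Such a separation was found for 2.14% of all genes tested and for 0 of the 35 genes, a number near that share.

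Within each model, 6 pairs of genes were correlated over tumors in log2 CPM, which made 12 relations. None passed after adjustment over the 12 (exact two-sided permutation test, smallest adjusted p = 0.3003 for Pearson's r and 0.275 for Spearman's rho). In GMYC tumors (n = 6) Cdkn2a and Trp53 had r = 0.80 (exact permutation p = 0.0583, adjusted p = 0.3003) and rho = 0.77 (exact permutation p = 0.103, adjusted p = 0.411), and r was 0.91 without GMYC tumors 3 and 6. In GTML tumors (n = 8) the same pair had r = -0.53 (exact permutation p = 0.150, adjusted p = 0.3003) and rho = -0.74 (exact permutation p = 0.0458, adjusted p = 0.275), with r = -0.26 without GTML tumors 2 and 4 and r = -0.53 within the 6 GTML tumors of lower snoRNA share.

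Cdkn2a and Cdkn1a had r = -0.72 in GTML (exact permutation p = 0.0866, adjusted p = 0.3003, n = 8) and rho = -0.55 (exact permutation p = 0.171, adjusted p = 0.472). This r was -0.36 without GTML tumors 2 and 4, and -0.24 within the 6 tumors of lower snoRNA share, so it rests on those tumors, of which GTML tumor 2 had the highest Cdkn2a and the lowest Cdkn1a of all. In GMYC the pair had r = 0.06 (exact permutation p = 0.894, adjusted p = 0.961, n = 6). Cdkn2a and Mdm2 had r = -0.77 in GMYC (exact permutation p = 0.0889, adjusted p = 0.3003, n = 6), which turned to 0.82 without GMYC tumors 3 and 6, and r = -0.51 in GTML (exact permutation p = 0.142, adjusted p = 0.3003, n = 8).

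The targets Cdkn1a and Ccng1 had r = 0.33 in GMYC (exact permutation p = 0.519, adjusted p = 0.823, n = 6) and r = 0.57 in GTML (exact permutation p = 0.147, adjusted p = 0.3003, n = 8), the latter being -0.34 without GTML tumors 2 and 5. The other sides of the snoRNA split held 2 or 4 tumors of a model, too few for a correlation.

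**Figure D5:**
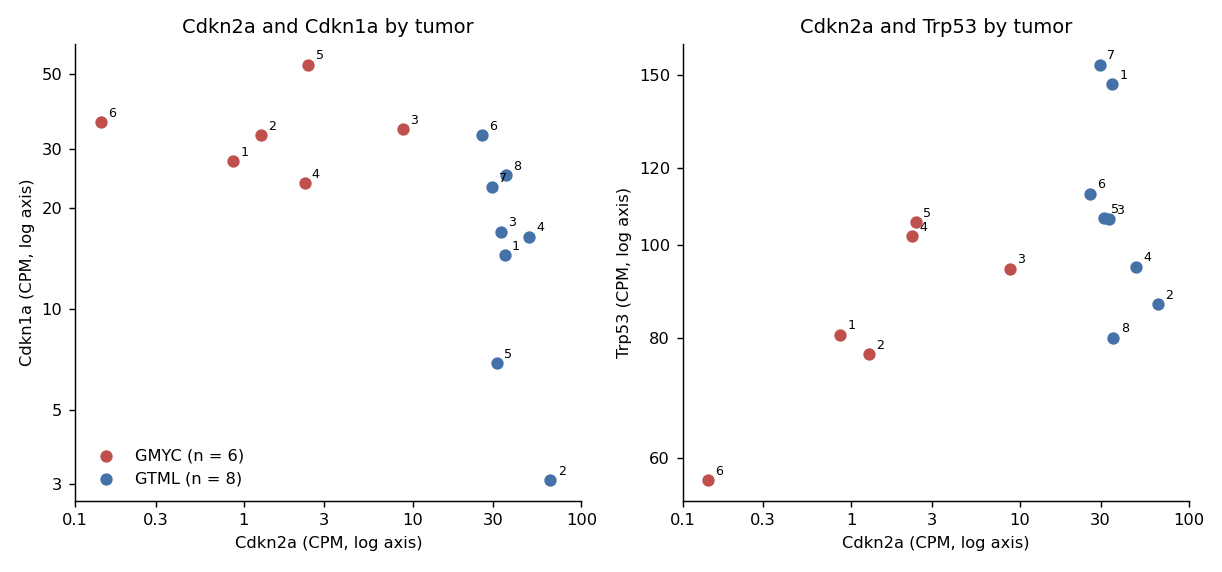
Cdkn2a against Cdkn1a (left) and against Trp53 (right) in each tumor, in CPM on log axes. Each point is a tumor with its number, red for GMYC (n = 6) and blue for GTML (n = 8). Cdkn2a separates the models without overlap, and GTML tumor 2 combines the highest Cdkn2a with the lowest Cdkn1a.

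Further lists of the pathway were counted in the same fit. Of 31 tested regulators and cofactors of p53, 2 were higher in GTML (6.45%) and 1 was higher in GMYC (3.23%), both shares below those of all genes (11.5% and 9.71%). These were Cdkn2a, the kinase Hipk2, which phosphorylates p53 (0.57, SE 0.18, edgeR adjusted p = 0.0328), and the checkpoint kinase Chek1 on the GMYC side (-0.47, SE 0.15, adjusted p = 0.0362).

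Of 37 tested further p53 targets, 5 were higher in GMYC (13.5%, against 9.71% of all genes) and 2 higher in GTML (5.41%, against 11.5%), with a median difference of -0.08 against 0.04 over all genes. The 3 with the smallest p on the GMYC side were Rps27l, a ribosomal-like protein (38.3 ± 6.08 against 17.5 ± 7.09 CPM; -1.13, SE 0.24, edgeR adjusted p = 0.00785), Gls2, a glutaminase (-0.95, SE 0.22, adjusted p = 0.0103), and Gpx1, a glutathione peroxidase (-0.76, SE 0.19, adjusted p = 0.0146). On the GTML side were the phosphatidate phosphatase Lpin1 (1.27, SE 0.22, adjusted p = 0.00355) and Ikbip (0.82, SE 0.25, adjusted p = 0.0327).

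Of 30 cell cycle genes that p53 lowers through p21 and the DREAM complex, 6 were higher in GMYC (20%, against 9.71% of all genes) and 0 higher in GTML (against 11.5%) in edgeR. At an unadjusted p under 0.05 were 11 of the 30 (36.7%), near the 37.8% of all genes, and 23 of 30 differences were below 0 with a median of -0.28. Ccnb1, cyclin B1, was at 153 ± 43.4 CPM in GMYC (SD, n = 6) and 89.6 ± 27.1 CPM in GTML (SD, n = 8), a difference of -0.77 (SE 0.21, adjusted p = 0.0176). Ccnb2, cyclin B2, differed by -0.68 (SE 0.20) and the mitotic kinase Plk1 by -0.63 (SE 0.19). These cyclins and Plk1, known to drive mitosis, were higher in the same model as the p53 targets Ccng1, Plk2 and Rprm. The other 7 of the 30 differences lay above 0, and a relation between this list and the p53 targets was not tested. Chek1 belongs to this list and to that of the regulators.

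Plk2, Btg2 and Ddit4 are also known to respond to growth and stress signals. Of 18 immediate early and stress genes, 2 were higher in GTML (11.1%, against 11.5% of all genes) and 1 was higher in GMYC (5.56%, against 9.71%). Dusp1, a phosphatase of MAP kinases, differed by 0.83 (SE 0.15, edgeR adjusted p = 0.00426) and Fos by 1.82 (SE 0.46, adjusted p = 0.0144). The asparagine synthetase Asns, a target of ATF4, was higher in GMYC (-0.64, SE 0.17, adjusted p = 0.0164).

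The differences between models were compared on the sides of the snoRNA split. The interaction of model and side passed for 0 of 35 genes and for 0 of 21024 genes with edgeR, with 5 of the 35 and 3180 of all genes at an unadjusted p under 0.05. Ccng1 differed by -1.14 on the side of higher share (4 GMYC and 2 GTML tumors, adjusted p = 0.192) and by -0.78 on the side of lower share (2 GMYC and 6 GTML tumors, adjusted p = 0.0987). Plk2 differed by -1.35 and -1.25, Apaf1 by -0.38 and -0.59, Bax by -0.29 and -0.61, and Mdm2 by -0.26 and -0.28, and neither value of these genes passed on its own side. Rprm passed on the side of lower share (-2.12, edgeR adjusted p = 0.0191) and was at -0.96 on the other. The difference between its sides was not called (edgeR interaction, adjusted p = 0.595). Cdkn1a differed by -1.75 and -1.15.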

How the data were processed

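RNA from fresh-frozen biopsies of 6 GMYC and 8 GTML tumors was sequenced with Ion Torrent chemistry. The authors aligned reads to mouse mm9 with STAR and then Bowtie and summed them over GENCODE genes by featureCounts. The submitters' processing notes list STAR 2.4.0, Bowtie2 2.2 and Subread 1.5.2. They deposited the whole-number counts of 37310 genes without normalization. Whether strand was used and how duplicates were handled is not given in the sources used here, so reads of Cdkn1a, Ddb2, Ei24, Gadd45a, Plk3 and Rrm2b may include those of genes on the opposite strand.

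Symbols and exon lengths for 32620 genes (87.4%) came from GENCODE M21, by Ensembl ID. Counts were normalized with TMM, the 21024 genes above 1 CPM in 3 or more tumors entered the quasi-likelihood test of edgeR 4.0.16 (R 4.3.3) with Benjamini-Hochberg adjustment, where the study used limma-voom. Intervals cover counting error only. Correlations used log2 CPM with a prior count of 2. A simulation with 200 changed genes was used to test the code.

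The members and lists were chosen with earlier results of these data known. Trp53, Mdm2, Mdm4, Cdkn1a and each gene past an adjusted p of 0.05 are given by tumor, and up to 3 others per role and per list by smallest p, with the rest summarised. Where a gene outside this rule is singled out, it was chosen after its values were seen. Alternatives were DESeq2 1.42.0, limma-voom (limma 3.58.1), no TMM, other filters, a block by number, the small nucleolar RNA split at 0.3%, a Y-linked covariate, protein-coding genes only, leaving out each tumor, a prior count of 0.5, and the longest transcript as length. Figures were drawn with matplotlib 3.10.9. A table with 18 columns of cell line counts, whose names match no label, was not used here, and 1 listed p53 target, Ptprv, was not matched.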

Additional observations from a re-analysis of the deposited data

Results flagged for a closer look

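Dixon's criterion, by which the gap between an extreme tumor and its neighbour is divided by the range of the model, was applied to the 35 genes and Cdkn2a in both models. It singled out 12 of 72 groups of tumors. Its nominal rate of about 1 in 20 holds for independent groups of normally distributed values. Here CPM were not log-transformed and the same tumors recur from gene to gene. The 12 groups can therefore not be judged against that rate. GMYC tumor 6 accounted for 6 of the 12. It was the highest GMYC tumor for Gtse1 (124 CPM, next 62.6 CPM, gap 0.848 of the range), Trp53inp1 (245 and 101 CPM, 0.715), Ddit4 (162 and 80.5 CPM, 0.691), Rrm2b (49.6 and 33.5 CPM, 0.674) and Perp (8.34 and 3.86 CPM, 0.673), and the lowest for Xpc (50.3 and 71.8 CPM, 0.714). Plk2 was lowest in GMYC tumor 2 (47.0 CPM, next 122 CPM, 0.675) and Cdkn2a was highest in GMYC tumor 3 (8.72 and 2.41 CPM, 0.735).

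In GTML tumors, Pidd1 was highest in GTML tumor 1 (267 CPM, next 73.2 CPM, gap 0.796 of the range) and Rprm in GTML tumor 2 (8.46 and 4.15 CPM, 0.661). GTML tumor 3 was highest for Rrm2b (41.3 and 31.7 CPM, 0.65) and for the polymerase Polk (67.6 and 44.5 CPM, 0.53). The low Cdkn1a of GTML tumor 2 and the low Eda2r of GTML tumors 5 and 6 did not meet the criterion.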

How the results depend on the processing

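The count of 6 genes higher in GMYC was between 4 and 7 with DESeq2, limma-voom, no TMM, other filters, protein-coding genes or the split by small nucleolar RNA as a term, and it was 3 with a Y-linked covariate (Ccng1 and Plk2 of the 6, and Sesn1), 2 with only the low side of the split (Rprm of the 6, and Ddit4), 0 with only its high side, and 2 to 8 when 1 tumor was left out (2 without GMYC tumor 3, 3 without GMYC tumor 5 or GTML tumor 5). The tumor numbers do not pair the tumors (deviations of same-numbered tumors correlated between -0.21 and 0.24, and 1 of 6 numbers correlated best with its own). With the replicate block 0 of the 35 genes were called in either direction in edgeR. Of 20617 genes in that fit, 161 were called on the GTML side and 90 on the GMYC side. At an unadjusted p under 0.05, 8 of the 35 lay on the GMYC side and 2 on the GTML side. The share of all genes at that unadjusted level was not counted for the block. Sfn alone was called higher in GTML in all fits except with the edgeR filter, the block and either side of the split (0 each), and without GMYC tumor 6 the count was 2, with Perp. Over all genes the 2418 higher in GTML became 1428 with the split term, 0 and 1328 on its high and low side, 1290 with the Y covariate and 1433 to 3264 without 1 tumor. The 2041 higher in GMYC became 2, 1334, 761 and 1184 to 3166 in the last 4 of these, and 1360 among protein-coding genes. By the study's thresholds 1 gene passed, 3 with DESeq2, and 0 to 2 without 1 tumor. The count was 0 with limma-voom, the other filters, the block, either side, the Y covariate or protein-coding genes. The share of all genes passing these thresholds was counted in the main fit only. Mdm4 turned from 0.07 to -0.027 with the block, -0.030 with the split term and -0.22 on the high side. The cause of these changes was not tested. A prior count of 0.5 left the direction of all 12 correlations and their side of the threshold as they were. At 1 to 30 counts, Sfn, Fas and Pmaip1 are limited by depth.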
